A study of Mus musculus with 10 samples.

Results

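The genes described here encode the receptors that let a macrophage sense IL-4 and the interferons, together with a kinase they share. They are Il4ra, Il21r, Ifngr1, Ifngr2, Ifnar1, Ifnar2, Il10rb and Jak1, 8 of the 21728 protein-coding genes considered. They were chosen by name for their roles. Their chromatin loops were taken from 5 lists of Hi-C loops. A loop was counted for a gene when at least 1 of its anchor bins, which are 10 kb wide, overlapped the 100 kb on either side of the transcription start site (TSS). The M0[CTR] list held 136 such loops of 53424 and the M2[IL-4] list 144 of 58260. There were 196 of 67728 for M2p[pIL-4], 141 of 55012 for IFNG and 169 of 67000 for pIL-4 + IFNG. Where 5 values follow each other below without names, they keep this order of lists. Over the 5 lists they came to 373 distinct bin pairs of 153264.

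Hi-C crosslinks chromatin, cuts the DNA with a restriction enzyme, here MboI, joins ends that lie close together and sequences the junctions. The cells were bone marrow-derived macrophages grown in M-CSF from wild-type female C57BL/6 mice aged 2-3 months, and treatments began on day 6 of culture. M0[CTR] cells were left untreated, and M2[IL-4] cells were kept with IL-4 (20 ng/ml) for 24 h. M2p[pIL-4] cells received the same IL-4 course, were washed and rested for 24 h. IFNG cells received IFNG at 20 ng/ml for 3 h, and pIL-4 + IFNG cells received that dose after IL-4 priming and rest. Each of the 5 groups had 2 replicates by the labels, but the files held 1 list per group. No replicate spread could therefore be computed, and every interval below is a 95% interval that covers counting error alone. Because the lists carry loops and no transcripts, neither the macrophage label nor the expression of the receptors could be checked here.

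IL-4 binds the chain encoded by Il4ra, which pairs with the common gamma chain or with the IL-13 receptor chain and signals mainly through STAT6. IFNG binds a receptor built from the Ifngr1 chain, which holds the ligand, and the Ifngr2 chain, which brings in JAK2. Type I interferons bind Ifnar1 and Ifnar2, and the protein of Il10rb is the shared second chain of the receptors for IL-10, IL-22 and the lambda interferons. JAK1 is bound to the IL-4, IL-21, IFNG and type I interferon receptors and phosphorylates STATs once a ligand is bound. Loops in mammalian nuclei are often anchored by CTCF, a DNA-binding protein that halts cohesin, and typical CTCF loops have motifs that point towards each other.

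The 8 genes lie in 4 loci, so they are not 8 separate observations. Il4ra and Il21r are neighbours on chromosome 7, with TSSs 51.3 kb apart, and at least 94.7% of the loops of either gene in any list were also counted for the other. Ifnar2, Il10rb, Ifnar1 and Ifngr2 follow each other on chromosome 16 within 174 kb from the first TSS to the last. Of the loops of Ifnar2, between 39.3% and 55.0% were counted for Ifngr2 as well, and at least 95.2% of those of Ifnar2 or Il10rb were shared between that pair. Ifngr1 on chromosome 10 and Jak1 on chromosome 4 stood alone.

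The receptor genes sat in regions rich in loops, and the interferon receptor cluster was the richest. Averaged over the 5 lists, Il10rb had 72.8 loops and Ifnar2 had 72, and more loops than Il10rb were found at few other genes, since 97.2% of all genes had fewer. Ifnar1 followed with 58, Ifngr2 with 52.2, Il21r with 36.6, Il4ra with 36, Ifngr1 with 19.6 and Jak1 with 11.2. The median gene had 7.4 loops and 3718 genes had none, which places even Jak1 above the middle, as 57.3% of genes had fewer. Neighbours in this order had overlapping counting intervals in every list, except Il4ra and Ifngr1 in the 2 lists of IFNG-treated cells. Contacts summed to between 2174945 and 2787117 per list, with a median of 32 per loop in each, and the loops of the 8 genes held 6824 to 9561 of them.

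**Figure D1:**
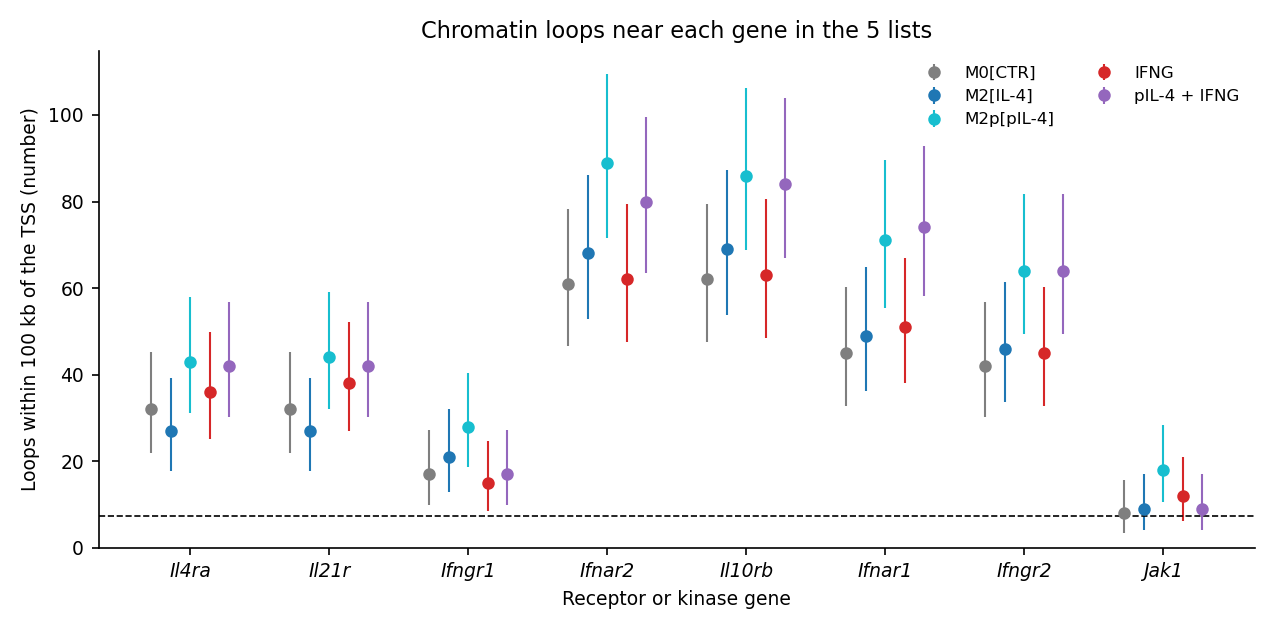
Number of loops within 100 kb of the TSS (y axis) for each of the 8 genes (x axis) in the 5 lists (colours). Bars are exact Poisson 95% intervals, which cover counting error alone, and the dashed line is the median over all protein-coding genes, 7.4 loops. Ifnar2 and Il10rb lie highest and Jak1 lowest in every list, and as called all 8 genes have more loops in M2p[pIL-4] than in M0[CTR], an order that is lost at 7 of them once touching bin pairs are merged and numbers scaled.

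The genes differed in how far their loops reached and in how many bins they met. A partner bin is the bin at the other end of a loop from an anchor in the window of the gene. Ifnar2 met 33, 32, 36, 30 and 30 partner bins, of which 18 to 23 lay outside its own window. Il10rb met 34, 32, 36, 30 and 32, Ifnar1 met 22, 24, 27, 25 and 27, and Ifngr2 met 26, 27, 27, 23 and 25. The number of partner bins in the cluster thus varied less between lists than the number of loops. Il4ra met 21, 17, 21, 24 and 23 partner bins and Il21r 17, 9, 17, 18 and 22, with M2[IL-4] lowest in both. Ifngr1 met 16, 14, 17, 12 and 14, and Jak1 met 12, 10, 15, 14 and 10. Loops were longest at Ifngr1, with a median span of 170 to 200 kb in the 5 lists, and shortest at Ifnar1, with 50 to 80 kb. At Il4ra the median span was 95 to 110 kb.

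Contacts were also summed over all loops of a gene. Il4ra had 1618, 1104, 2015, 1868 and 2396 contacts, so the value in M2[IL-4] was the lowest. Ifngr1 had 731, 747, 943, 462 and 478, with both lists of IFNG-treated cells below the other 3. Jak1 had 293, 330, 611, 445 and 297. In the cluster, Ifnar2 had 3067, 3123, 4364, 2942 and 3733 contacts and Ifnar1 3177, 3223, 4349, 2933 and 4289. These sums move with how many bin pairs were called. The median contacts per loop stayed between 39 and 47.5 at Il4ra and between 32 and 37 at Ifnar2, and at Ifngr1 they lay between 27 and 37.

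Il4ra, the IL-4-binding chain, spans chr7:125552120-125579474 on the plus strand in GRCm38. It had 32 loops in the M0[CTR] list and 27 in the M2[IL-4] list. The M2p[pIL-4] list had 43, the IFNG list 36 and the pIL-4 + IFNG list 42. As called, the number was lowest under IL-4 itself and highest after the wash and rest. With touching bin pairs merged the numbers were 6, 7, 6, 6 and 8, and M2[IL-4] was no longer lowest. Il21r, the IL-21-binding chain at chr7:125603429-125633570, had 32, 27, 44, 38 and 42 loops in the same order. Within the bin that holds the Il4ra TSS, 5, 1, 4, 3 and 4 loops were called, so that M2[IL-4] again was lowest. That was not particular to Il4ra. The Ifngr2 TSS bin had 4, 1, 4, 3 and 4 loops, Ifnar2 8, 5, 7, 6 and 11 and Ifnar1 4, 3, 8, 5 and 6. M2[IL-4] was lowest or tied for lowest at every member but Ifngr1, where the TSS bin had 3, 4, 4, 2 and 2. The bin of the Il21r TSS carried few loops, 1 with M0[CTR], 2 with M2p[pIL-4], 3 with pIL-4 + IFNG and 0 in the other two lists.

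The partner that the Il4ra TSS met in every list was the TSS of Nsmce1, which encodes a subunit of the SMC5/6 complex. The bins chr7:125490001-125500000 and chr7:125550001-125560000, 60 kb apart, had 71 contacts in M0[CTR] (interval 55.5 to 89.6) and 59 in M2[IL-4] (44.9 to 76.1). M2p[pIL-4] had 83 contacts (66.1 to 103), IFNG had 81 (64.3 to 101) and pIL-4 + IFNG had 62 (47.5 to 79.5). It was the only loop of the Il4ra TSS bin in the M2[IL-4] list. All 5 intervals overlapped. From the Il21r TSS bin, the loop with the most contacts summed over the 5 lists ran 30 kb to chr7:125630001-125640000 at the 3′ end of the same gene. It had 66 contacts for M0[CTR], 59 for M2p[pIL-4], 54 for pIL-4 + IFNG and no call in the other lists. A sum over lists favours loops called in more lists. In pIL-4 + IFNG the 3 loops of this TSS bin had 262 contacts, so another loop had more there.

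The strongest loop of this locus left the body of Nsmce1 at chr7:125470001-125480000 and ended in the 3′ part of Il4ra at chr7:125570001-125580000, 100 kb away. Strength here means contacts divided by the median contacts of loops of the same span in the same list. Contacts were 60, 63, 71, 78 and 71 over the lists, and strength ran from 1.5 in M0[CTR] to 1.90 in IFNG. The left anchor was also the busiest bin of the locus, with 41 calls over the 5 lists. CTCF-like sequences were searched on both strands with a 14-base consensus and at most 1 mismatch. The busiest left bin held 3 matches, all on the plus strand, and the bins chr7:125580001-125590000 and chr7:125630001-125640000 to its right held 1 each, both on the minus strand. The right anchor of the strongest loop, chr7:125570001-125580000, held none. Other anchor bins of the locus also held matches, on either strand, among them a plus match in the Il4ra TSS bin, that are not shown. The matches shown are those of the bins just named, and the one past the Il4ra 3′ end lies between Il4ra and Il21r. Each is read 5′ to 3′ on its own strand, with the 14 bases of the match in capitals and 8 bases on either side.
Nsmce1 body, plus strand, chr7:125470119-125470132: gctgcatgCCACTAGAGGGAGCcaacctga
Nsmce1 body, plus strand, chr7:125472082-125472095: tcaaaatgCCACTAGAGGGCGCtgcctcgc
Nsmce1 body, plus strand, chr7:125478434-125478447: gacttagaCCACTATAGGGCACcacatacc
past the Il4ra 3′ end, minus strand, chr7:125581570-125581583: agtgcgggCCACCAGGGGGCAGcagggact
past the Il21r 3′ end, minus strand, chr7:125639081-125639094: cctgcccaGCAGCAGGGGGCAGcagcaagc

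**Figure D2:**
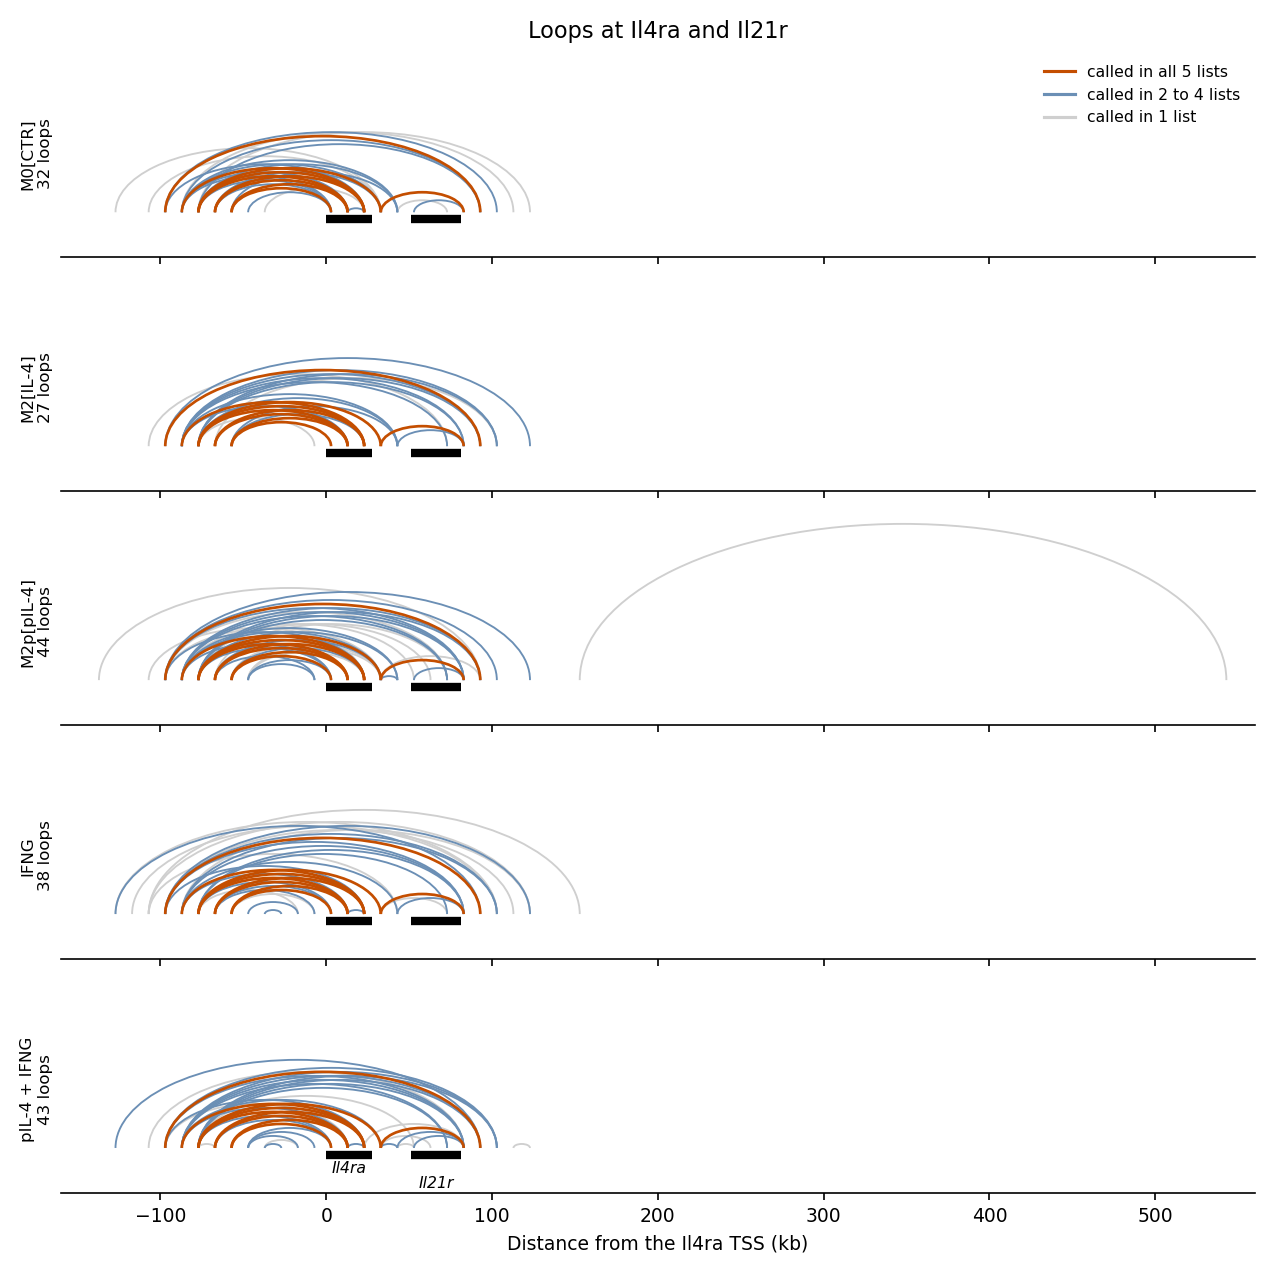
Loops counted for Il4ra and Il21r in each of the 5 lists, drawn as arcs between bin centres against the distance from the Il4ra TSS in kb (x axis), with height in proportion to span and black bars for the 2 genes. Orange arcs were called in all 5 lists, blue in 2 to 4 and grey in 1. The orange bundle joins the Nsmce1 side to Il4ra in every list, and the single arc to the far right was called in M2p[pIL-4] alone.

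Ifngr1, the IFNG-binding chain at chr10:19591949-19610229 on the plus strand, had 17, 21, 28, 15 and 17 loops. As called, the 2 lists of IFNG-treated cells were thus no higher than untreated cells, and the primed and rested cells were highest. With touching bin pairs merged the numbers were 7, 6, 8, 5 and 8. There pIL-4 + IFNG stood above M0[CTR] and level with M2p[pIL-4]. The TSS bin had 3, 4, 4, 2 and 2 loops. Its loop with the most contacts reached 70 kb upstream to chr10:19520001-19530000, a bin with no annotated protein-coding gene, with 71, 60, 74 and 60 contacts in the other 4 lists and no call in IFNG.

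The strongest loop around Ifngr1 enclosed the gene, 200 kb from chr10:19490001-19500000 to chr10:19690001-19700000. It had 46 contacts in untreated cells (33.7 to 61.4), 37 under IL-4, 32 after the rest (21.9 to 45.2) and 39 in each list of IFNG-treated cells. The value in the list with the most loops near Ifngr1 as called was therefore the lowest of the 5, with overlapping intervals. Il22ra2, which encodes a soluble IL-22-binding protein, has its TSS inside the same span. The left anchor held a match to the CTCF consensus on each strand and the right anchor 1 on the minus strand, printed because they mark the ends of this span.
left anchor, plus strand, chr10:19491693-19491706: gagaaggaCCACCAGGGGGCAGcatcctca
left anchor, minus strand, chr10:19490611-19490624: aacattgcCCAGTAGGTGGAGGcttttttg
right anchor, minus strand, chr10:19693824-19693837: caaaaaggCCAGAAGAGGGCACcatattcc

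On chromosome 16, all 4 genes of the interferon receptor cluster lie on the plus strand, with Ifnar2 at chr16:91372783-91405589, Il10rb at chr16:91406164-91425834, Ifnar1 at chr16:91485238-91507441 and Ifngr2 at chr16:91547072-91565623. Counted once each, the loops of the cluster numbered 79, 87, 106, 76 and 100. As called, the 2 lists of primed cells were the highest. By gene and in the same order, Ifnar2 had 61, 68, 89, 62 and 80 loops. Ifnar1, the other type I interferon receptor chain, had 45, 49, 71, 51 and 74. Ifngr2 had 42, 46, 64, 45 and 64, and Il10rb had 62, 69, 86, 63 and 84. In all 4 genes M2p[pIL-4] and pIL-4 + IFNG stood above the other lists, which are also the shorter ones. With touching bin pairs merged this order was lost, and pIL-4 + IFNG had the fewest loops at each of the 4, 10 at Ifnar2, 12 at Il10rb and Ifnar1 and 13 at Ifngr2.

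The loops fell on 2 sides of a pair of bins just upstream of Ifnar2. The bin chr16:91360001-91370000 had 10, 13, 16, 13 and 16 loops in the 5 lists, 68 calls in all, and chr16:91350001-91360000 had 54 calls. Loops that passed over both bins were nearly absent: 1 of 79 in M0[CTR], 1 of 76 in IFNG and 0 in the other lists. Loops that started at these bins or to their right numbered 51, 57, 78, 53 and 76, and those that ended at them or to their left 27, 30, 28, 22 and 24. As called and with no scaling by list length, the higher totals of the 2 primed lists were thus on the side that holds the receptor genes. The sides were not counted with touching bin pairs merged. The strongest loop of the cluster lay on the other side, 280 kb from chr16:91070001-91080000 in the body of 4932438H23Rik to chr16:91350001-91360000, with 35, 43, 34, 49 and 51 contacts and a strength of 1.52 in M0[CTR] and 2.22 in pIL-4 + IFNG.

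Both bins of that loop held matches to the CTCF consensus, 1 plus and 2 minus on the left and 1 on each strand on the right, while chr16:91360001-91370000 held none. A further frequent anchor between Ifnar1 and Ifngr2, chr16:91520001-91530000, held 1 on the plus strand. The 2 matches next to Ifnar2, the match at the far left anchor that had no mismatch and the match between the genes are printed to place these ends.
far left anchor, minus strand, chr16:91073693-91073706: aagtatcgCCAGTAGGTGGCAGacttggtc
next to Ifnar2, minus strand, chr16:91352242-91352255: ctctatagCCAGAAGGTGGCGCcatttctc
next to Ifnar2, plus strand, chr16:91358623-91358636: ataaataaCCAGCAGAGGGCACtgttccct
between Ifnar1 and Ifngr2, plus strand, chr16:91526766-91526779: ttgacacaCCAGAAGAGGGCACcagatctc

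Across all loops of the 8 genes, 47 of 133 anchor bins (35.3%) held at least 1 match, beside 31.3% of all anchor bins in the lists and 21.4% of all sequenced bins of this size. A match is a description of the letters in a bin and not a binding site, and the letters of the named Jak1 anchors held none.

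**Figure D3:**
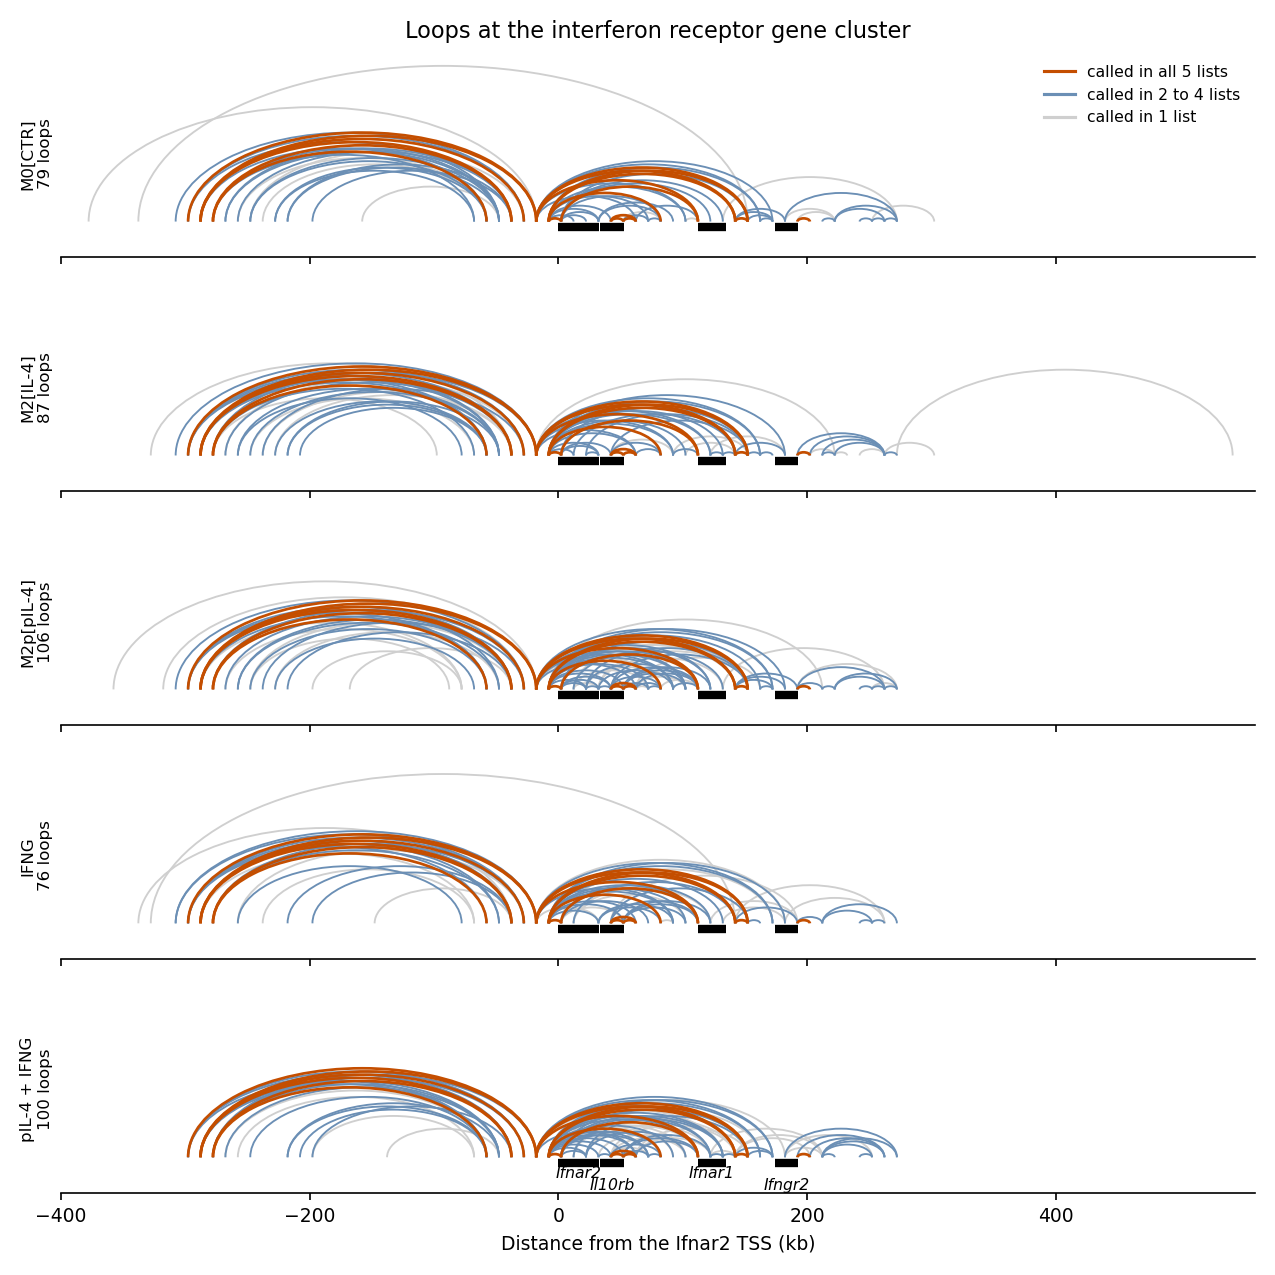
Loops counted for Ifnar2, Il10rb, Ifnar1 and Ifngr2 in each of the 5 lists, drawn as arcs between bin centres against the distance from the Ifnar2 TSS in kb (x axis), with height in proportion to span and black bars for the 4 genes. Orange arcs were called in all 5 lists, blue in 2 to 4 and grey in 1. Arcs gather on either side of the bins just left of 0, and in M2[IL-4], M2p[pIL-4] and pIL-4 + IFNG no arc passes over them.

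The TSSs of the type I interferon receptor pair met each other in every list. The bins chr16:91370001-91380000 (Ifnar2) and chr16:91480001-91490000 (Ifnar1), 110 kb apart, had 41, 44, 37, 40 and 33 contacts, with intervals of 29.4 to 55.6 for M0[CTR] and 22.7 to 46.3 for pIL-4 + IFNG. These values overlapped and lay near the level usual for the span, with strength from 0.868 to 1.13. The Ifnar2 and Ifngr2 TSS bins, in contrast, were joined in the IFNG list alone, by 53 contacts (39.7 to 69.3) and a strength of 1.66. In the other lists 1 to 4 bin pairs within 1 bin of it were called, with at most 27, 29, 34 and 44 contacts. The value in IFNG was therefore the highest, but contacts at the exact bin pair are not known where it was not called. The Ifnar2 and Il10rb TSS bins had 63, 67 and 69 contacts in the lists without IFNG and were not called in those of IFNG-treated cells. Within 1 bin of that pair 4, 3, 6, 1 and 4 bin pairs were called over the 5 lists, with at most 96, 71, 85, 62 and 82 contacts, so the IFNG list had the fewest and the lowest. No list joined the exact TSS bins of Ifnar1 and Ifngr2, of Il10rb and Ifnar1 or Ifngr2, or of Il4ra and Il21r. Within 1 bin of the pair of Il10rb and Ifnar1, M2p[pIL-4] had 2 calls, IFNG 1 and pIL-4 + IFNG 4. These had at most 42, 49 and 46 contacts. Within 1 bin of the pair of Ifnar1 and Ifngr2, M2[IL-4] alone had a call, with 35 contacts. None was called within 1 bin for Il10rb and Ifngr2 or for Il4ra and Il21r.

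At Ifnar2, Il10rb and Ifngr2 the loop of the TSS bin with the most contacts summed over the 5 lists joined a near bin. At Ifnar1 that sum was highest for the 110 kb loop to the Ifnar2 TSS bin, which was called in every list. Within single lists other loops of the Ifnar1 TSS bin had more contacts. In M0[CTR] its 4 loops had 261 contacts, of which the 110 kb loop had 41. Ifnar2 met the adjoining bin chr16:91360001-91370000 with 201, 207, 185, 183 and 164 contacts in the 5 lists, the lowest again in pIL-4 + IFNG (139.9 to 191). Il10rb met the same upstream bin with 73, 71, 62 and 76 contacts and was not called in M2p[pIL-4]. Ifngr2 met its adjoining upstream bin chr16:91530001-91540000 with 147, 163 and 161 contacts in the lists without IFNG, and that pair was not called in either list of IFNG-treated cells. The Ifngr2 TSS bin as a whole had 4, 1, 4, 3 and 4 loops, so its number was not lowest in those lists. The TSS bin of Tmem50b, the next gene after Ifngr2, had 5, 5 and 3 loops in the lists without IFNG, 0 with IFNG alone and 1 after priming. The TSS bin shared by Gart and Son had 4, 2, 4, 1 and 2. Those of Ifnar2, with 8, 5, 7, 6 and 11, and Ifnar1, with 4, 3, 8, 5 and 6, did not follow Tmem50b. How often bin pairs elsewhere were called only in lists without IFNG was not counted.

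The promoters of the interferon receptor genes were searched for the element bound by STAT dimers, since the TSS bins of Ifnar2 and Ifnar1 were joined in every list. RefSeq promoters, which run from 250 bases before to 50 bases after the start on GRCm38.p6, were found for 7 of the 8 genes, all but Il10rb. The letters TTC, 3 bases and GAA, which read alike on both strands, occurred once each in Ifnar1 and Ifnar2 and in 8.34% of 32619 promoters. The letters TTC, 4 bases and GAA, a spacing STAT6 favours, occurred once in Ifngr2 and in 6.99% of promoters. GAAA, 2 bases and GAAA, part of the interferon-stimulated response element, searched on both strands, occurred in none of the 7 and in 3.46% of all. The windows of 30 bases around the matches, on the plus strand with the match in capitals, are as follows.
Ifnar2, chr16:91372558-91372587: ctgccaaggccTTCCTGGAAgaagagagta
Ifnar1, chr16:91485199-91485228: gggcgggggcgTTCACGGAAggggcggggc
Ifngr2, chr16:91546958-91546987: ggggccgcggTTCCCGGGAAcaccggggaa

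Jak1, the kinase shared by these receptors, spans chr4:101152367-101265282 on the minus strand. It had 8, 9, 18, 12 and 9 loops, so primed and rested cells stood above the rest, but 5, 5, 6, 7 and 4 with touching bin pairs merged. Its own TSS bin had a loop in 2 lists only, 1 in M0[CTR] and 1 in IFNG. The one in IFNG reached chr4:101290001-101300000, 30 kb upstream, with 84 contacts (67.0 to 104). Most Jak1 loops instead joined the body of the gene to bins upstream of its TSS bin, 6 of 8, 9 of 9, 17 of 18, 11 of 12 and 9 of 9 in the 5 lists. The strongest, from chr4:101160001-101170000 to chr4:101320001-101330000, had 47, 55, 50, 38 and 39 contacts in the 5 lists and passed over the TSS. With so few loops, a single call moves the Jak1 numbers by a large share.

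**Figure D4:**
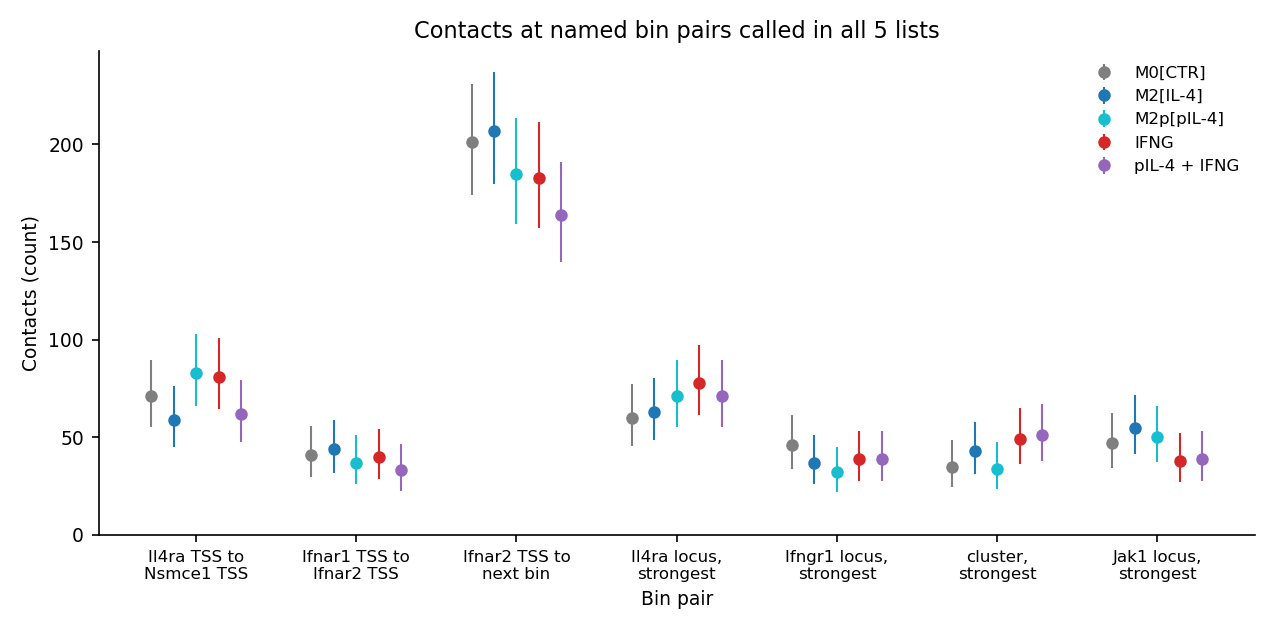
Contacts (y axis, counts) at the 7 named bin pairs called in all 5 lists (x axis), with lists in colours and exact Poisson 95% intervals as bars. The Ifnar2 pair of adjoining bins reaches 164 to 207 contacts and the others lie between 32 and 83, with overlapping intervals between the lists at each pair.

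Comparisons between lists used the ratio of loop numbers after adding 1 loop to each and dividing by the length of the list, with a change of at least 1.5-fold taken as called. The first comparison asked what IL-4 did. Between M2[IL-4] and M0[CTR], 0 of the 8 genes passed, where 29.1% of genes with a loop in either list did and 11.5% of the 9735 genes with a mean of at least 10 loops. Il4ra and Il21r had the lowest log2 ratio of the 8, -0.36 (interval -1.17 to 0.41), and Ifngr1 the highest, 0.16. The median of the 8 was 0.02, beside -0.02 for genes with a mean of at least 10 loops.

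The second question was what remained once IL-4 had been withdrawn. Between M2p[pIL-4] and M0[CTR], 1 of 8 passed, with a background of 26.4% and 7.77% in the same 2 sets of genes. It was Jak1, at 0.74 (-0.45 to 2.24) from 18 against 8 loops. Its sign turned with windows of 25 kb (-0.020) and 50 kb (-0.12), where it had at most 6 loops. As called and with the 100 kb window, all 8 genes had more loops in M2p[pIL-4], with a median ratio of 0.22 against -0.04 for genes with a mean of at least 10 loops. That direction depended on the counting. With touching bin pairs merged into 1 loop the ratio lay below 0 at 7 of the 8 genes, all but Ifnar2, and at Il4ra it was -0.25 with a window of 25 kb and -0.19 with 50 kb. Against M2[IL-4], M2p[pIL-4] had more loops at all 8 genes as called, with a median of 0.28 against -0.02, and 1 passed (background 27.7% and 8.73%). The gene that passed was Jak1 at 0.71 (-0.45 to 2.12), followed by Il21r at 0.47 and Il4ra at 0.43. With merged pairs 6 of these 8 ratios were below 0, among them Il21r at -0.14 and Il4ra at -0.33, and Jak1 lay at 0.086.

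IFNG was compared in unprimed and in primed cells. Between IFNG and M0[CTR], 0 of 8 passed (background 30.8% and 13.3%), from -0.21 at Ifngr1 to 0.49 at Jak1. The Jak1 ratio turned to -1.04 with a window of 25 kb and -0.63 with 50 kb. Between pIL-4 + IFNG and M2p[pIL-4], 2 of 8 passed, where 27.5% and 10.1% of genes did. Both had fewer loops after IFNG. Ifngr1 went from 28 to 17 loops, -0.67 (-1.67 to 0.22), and Jak1 from 18 to 9, -0.91 (-2.32 to 0.24). The other 6 lay between -0.14 and 0.07. Between pIL-4 + IFNG and IFNG, which sets primed against unprimed cells, 1 of 8 passed (background 25.6% and 7.88%), Jak1 at -0.66 (-2.13 to 0.67). That call was lost with windows of 25 kb and 50 kb (-0.28 in both), with no scaling (-0.38) and with lists of equal length (-0.53). Every interval of a called ratio included 0, and the share of members called was below that of all genes with a loop in each comparison. Against genes with a mean of at least 10 loops it was higher in 4 of the 6, at 12.5% or 25% for 1 or 2 of 8 genes, and Jak1, which was called in all 4, is the gene with the fewest loops. When touching bin pairs were merged into 1 loop, Ifngr1 had 8 loops in both pIL-4 + IFNG and M2p[pIL-4], and neither it nor Jak1 was called there.

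**Figure D5:**
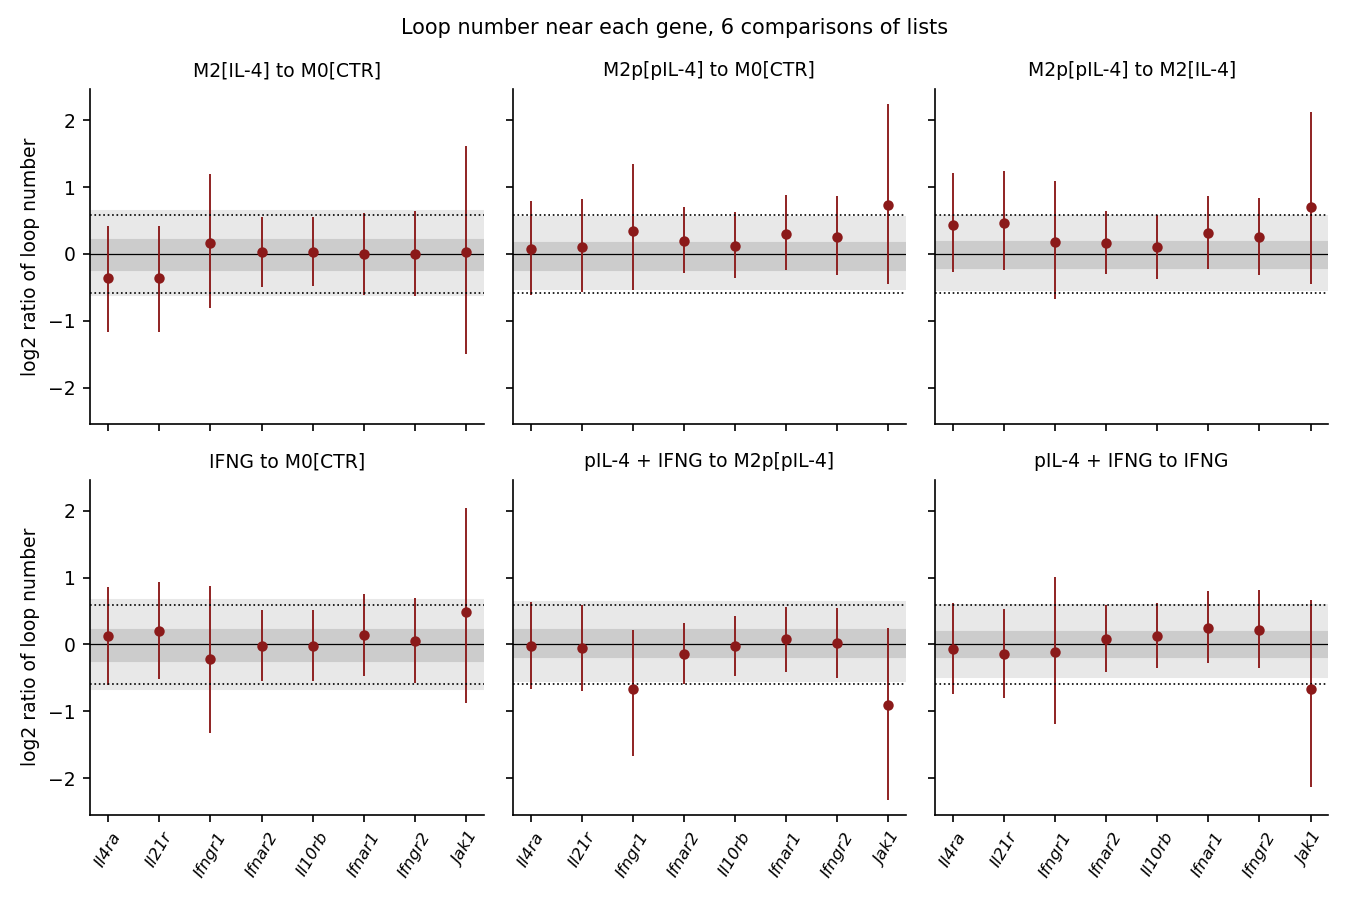
Log2 ratio of scaled loop number (y axis) for the 8 genes (x axis) in the 6 comparisons, 1 per panel, with 95% intervals that cover counting error alone. Grey bands hold the middle 50% and 90% of the 9735 genes with a mean of at least 10 loops, and dotted lines mark 1.5-fold. Jak1 is past a dotted line in 4 panels and Ifngr1 in 1, and every interval crosses 0.

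Contacts gave a second measure, summed for each gene over the bin pairs that both lists held. A gene was called when the sum in the higher list exceeded that in the lower by at least 25%. In each of the 6 comparisons 0 of the 8 genes were called. The background of all genes was 3.66% for M2[IL-4] over M0[CTR], 3.83% for M2p[pIL-4] over M0[CTR] and 2.84% for M2p[pIL-4] over M2[IL-4]. It was 3.45% for IFNG over M0[CTR], 2.8% for pIL-4 + IFNG over M2p[pIL-4] and 2.9% for pIL-4 + IFNG over IFNG. The Il4ra and Il21r locus alone had intervals that left out 0. Its 16 shared bin pairs had 707 contacts in M2[IL-4] and 790 in M0[CTR], a log2 ratio of -0.16 (-0.31 to -0.01). Its 19 pairs shared by M2p[pIL-4] and M2[IL-4] had 921 and 808, a ratio of 0.19 (0.051 to 0.33). Both ratios thus put M2[IL-4] lowest, as the loop numbers as called did, by sizes under that line, and they rest on the same M2[IL-4] list. At the Il4ra TSS bin itself, where 1 pair was shared, the ratio of M2p[pIL-4] to M2[IL-4] was 0.49.

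Most loops of these genes in treated cells had a counterpart in untreated ones. A loop was matched when both anchors lay within 25 kb of those of a loop in M0[CTR]. Of the M2[IL-4] loops of the 8 genes 93.8% were matched (88.5 to 96.7%), beside 86.4% of the whole list. For M2p[pIL-4] the shares were 93.4% against 85.9%, for IFNG 93.6% against 87.0% and for pIL-4 + IFNG 94.1% against 84.9%. All 27 loops of Il4ra in M2[IL-4] had a match, which allows a share as low as 87.5%. These genes also lay in regions denser in loops than the median gene, and the part this plays was not tested. In identical bins, 49.3% of the M2[IL-4] loops recurred in M0[CTR], beside 44.5% of the whole list, but for IFNG the share was 41.8% beside 45.6%. Of the 373 bin pairs, 33 (8.85%) were in all 5 lists and 181 (48.5%) in 1 list, beside 9.18% and 55.5% in the whole series. By locus, 12.2% of the bin pairs at Il4ra and Il21r were in all 5 lists, 9.05% at the interferon receptor cluster, 6.38% at Ifngr1 and 2.94% at Jak1.

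The few loops without a counterpart were sorted by the lists that held them. Transient loops appeared under IL-4 and in neither untreated nor rested cells. Memory loops were absent from untreated cells, appeared under IL-4 and had a match within 25 kb after the rest, and Primed loops were called after the rest alone. The lists of IFNG-treated cells played no part in these names. At least 1 Transient loop lay near 5 of the 8 genes, where 43.6% of all genes and 62.6% of those with a mean of at least 10 loops had one. Memory loops lay near 6 (background 38.5% and 63.6%) and Primed loops near 3 (53.0% and 74.2%). Loops called in both lists of IFNG-treated cells and in neither M0[CTR] nor M2p[pIL-4] lay near 0 of the 8, where 18.8% and 30.3% of genes had one. Primed loops were at Il4ra, Il21r and Ifngr1, and none at the interferon receptor cluster, which held Transient and Memory loops. Ifngr1 held Transient and Memory loops as well, and Jak1 a Memory loop. This division depended on matching within 25 kb, since with matching only in identical bins all 8 genes had a loop of each class.

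Single loops of these classes had few contacts. At Ifngr1 the Primed loop of highest strength joined the TSS bin to chr10:19490001-19500000, the left end of the enclosing loop, with 43 contacts (31.1 to 57.9). A Memory loop there joined chr10:19480001-19490000 to chr10:19640001-19650000 with 24 contacts, and a Transient one ran 780 kb from chr10:18910001-18920000 with 13. In the cluster a Memory loop joined chr16:91350001-91360000 to the Tmem50b TSS bin chr16:91590001-91600000 with 30 contacts (20.2 to 42.8). The strongest Transient loop of the cluster joined the shared TSS bin of Gart and Son, chr16:91640001-91650000, to chr16:91910001-91920000 with 23. Beside Il21r, a Primed loop of 390 kb from the TSS bin of Gtf3c1 and D430042O09Rik, chr7:125700001-125710000, had 19 contacts. At Jak1 a Memory loop from chr4:101180001-101190000 to chr4:101360001-101370000 had 24. The contacts of the 3 Memory loops are those of M2[IL-4], and after the rest each was matched by another bin pair within 25 kb, not by the same bins. Strengths of these loops ran from 0.75 to 1.15, near the level usual for their span.

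Other genes of the same pathways were listed by role, 37 in all, of which 36 had a loop. Between M2[IL-4] and M0[CTR], 1 had more loops past 1.5-fold and 3 had fewer. Pias1, which encodes an inhibitor of activated STATs, went from 22 to 38 loops, and Il21, the ligand of Il21r, from 19 to 12. The other 2 were the common gamma chain Il2rg and the IL-13 receptor chain Il13ra1, with at most 5 loops. Between M2p[pIL-4] and M0[CTR], 1 had more and 2 had fewer. Irs2, an adaptor of IL-4 and insulin signalling, had 56 against 26 loops. Il22, one of the ligands that use the Il10rb chain, had 27 against 35, and Il2rg had 4 against 5. Between M2p[pIL-4] and M2[IL-4], 2 had more and 0 fewer, Il21 with 25 against 12 and Il13ra1 with 3 against 0.

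Comparisons that involved IFNG gave few changes in the listed genes. Between IFNG and M0[CTR], 3 of the 36 had more loops and 1 fewer. Jak2, the kinase on Ifngr2, went from 17 to 28 loops and Ptpn11, a phosphatase, from 10 to 23. Il20rb, a chain of the IL-20 receptors, went from 12 to 7. In primed cells 4 had more and 2 fewer, and Ptpn11 again had more, 23 against 12 loops, with Il20rb at 20 against 12 and Il2rg at 7 against 4. Il4, the ligand of Il4ra, went from 30 to 15 loops and its neighbour Il13 from 40 to 22. Between pIL-4 + IFNG and IFNG, 2 had more and 1 fewer, Il20rb with 20 against 7, Ifnb1 with 14 against 7 and Il10 with 15 against 20. Among listed genes with a mean of at least 10 loops, 2 had more and 1 fewer in the first of these comparisons, 2 and 2 in the second and 1 and 1 in the third. By percentage, between 5.56% and 16.7% of the listed genes were past the fold in each comparison, below the background of genes with a loop.

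Profiles over the 5 lists were compared between genes, each as log2 of scaled loop number centred on its own mean, over 5 lists and with likeness as the root mean square distance. Kcnip1 and Kcnmb1, which share a locus, were nearest to Il4ra at 0.020, with 24, 21, 33, 28 and 32 loops each. Sap18 at 0.038 and Zdhhc20 at 0.040 were nearest to Ifngr1, and Isoc2a and Isoc2b at 0.028 to Ifnar1. Usp38 at 0.063 and Slc19a1 at 0.090 were nearest to Jak1. Within 0.1 of Il4ra lay 222 of the 9719 genes compared. For Ifnar1 there were 169 of 9709 and for Ifngr1 51 of 9724, so the named genes were not alone. For Jak1 there were 3 of 9734. The Jak1 profile also spread most over the lists, with a standard deviation of 0.34, beside 0.17 for Il4ra, 0.24 for Ifngr1 and 0.16 for Ifnar1.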

How the data were processed

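Hi-C was measured in 10 samples of mouse bone marrow-derived macrophages, in 5 groups of 2 taken from the sample titles. The deposited files were 5 lists of loops with 1 for each group, so the replicates seem to have been pooled before calling. A line held 2 bins of 10 kb and, as deposited by the authors, a count of contacts, a whole number with no apparent normalization. Per the labels, reads were handled with FastQC, Bowtie2, HiC-Pro, Juicer and HOMER on mm10. The authors' methods describe loops at another bin size with a false discovery rate, which these lists do not hold. Their caller and its threshold are not given in the sources used here. How a caller sets its threshold decides which bin pairs appear, and a pair that was not called has no known count.

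TSSs came from GENCODE M21 on GRCm38. All chromosomes of the lists fitted that build. Windows of 100 kb, loop matching within 25 kb and the ratios were computed with Python 3.11.15, numpy 2.4.6, pandas 2.3.3 and scipy 1.17.1. Neighbouring bin pairs share reads and are not independent, so intervals (Wilson for shares, exact Poisson for contacts, exact binomial for ratios, all at 95%) are too narrow as well as blind to replicate spread. No p-value was computed. Counting, matching and ratios were tested on simulated data. The 8 genes and the lists of other genes were chosen with earlier results of these data known. Single loops were named by rule. From each TSS bin it was the loop with the most contacts summed over the 5 lists, which favours loops called in more lists. For each locus it was the strongest called in all 5 lists and the strongest of each class. For Il4ra, Ifngr1, Ifnar1 and Jak1 the 2 genes with the nearest profile were named, and pathway genes only if past 1.5-fold. Alternatives were windows of 25, 50 and 200 kb, no scaling, a pseudocount of 0.5, merged bin pairs, lists of equal length, no adjoining bins, and matching only in identical bins or within 50 kb. Genes with a mean of at least 10 loops were added as a background after seeing the data. Values of 1 listed pathway gene are not reported here.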

Additional observations from a re-analysis of the deposited data

Results flagged for a closer look

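With the 100 kb window, the number of Jak1 loops went opposite ways under IFNG in unprimed and primed cells. The log2 ratio was 0.49 between IFNG and M0[CTR], from 12 against 8 loops, and -0.91 between pIL-4 + IFNG and M2p[pIL-4], from 9 against 18. With windows of 25 kb and 50 kb the first ratio was -1.04 and -0.63, so that both were below 0 there. The difference between these ratios was not tested, since each group had 1 list, and both intervals included 0.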

How the results depend on the processing

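No paired analysis was possible because the files held 1 list per group and no values per replicate, and leaving out a replicate could not be run for the same reason. Of 85 alternative values for the counts and shares reported, 49 stayed near the reported one and 36 moved. Counts of genes were judged by their number alone, so some of the 49 kept the number with another gene. Jak1 gave way to Il21r in M2p[pIL-4] to M2[IL-4] with 200 kb, and to Ifngr1 in pIL-4 + IFNG to IFNG with 25 kb and 50 kb. Genes past 1.5-fold, given in the order M2[IL-4] to M0[CTR], M2p[pIL-4] to M0[CTR], M2p[pIL-4] to M2[IL-4], IFNG to M0[CTR], pIL-4 + IFNG to M2p[pIL-4] and pIL-4 + IFNG to IFNG, numbered 0, 1, 1, 0, 2 and 1 as reported. They were 3 (Il4ra, Il21r, Jak1), 2 (Ifnar1, Il10rb), 3 (Il21r, Il10rb, Jak1), 2 (Ifnar1, Jak1), 2 (Ifngr1, Jak1) and 1 (Ifngr1) with a window of 25 kb. With 50 kb they were 2 (Il4ra, Jak1), 0, 2 (Il4ra, Jak1), 2 (Ifngr1, Jak1), 2 (Ifngr1, Jak1) and 1 (Ifngr1), and with 200 kb 0, 0, 1 (Il21r), 0, 1 (Jak1) and 1 (Jak1). They were 0, 4 (Ifngr1, Ifngr2, Ifnar1, Jak1), 3 (Il4ra, Il21r, Jak1), 0, 2 (Ifngr1, Jak1) and 0 with no scaling by list length. With touching bin pairs merged they were 0, 0, 0, 0, 1 (Ifnar2) and 4 (Ifnar1, Ifnar2, Il10rb, Jak1). With lists of equal length they were 0, 1 (Jak1), 1 (Jak1), 0, 2 (Ifngr1, Jak1) and 0. There the Jak1 value in M2p[pIL-4] to M2[IL-4], from 14 against 9 loops, lay on the 1.5-fold line itself. It was taken as lost among the 36 values that moved. A pseudocount of 0.5 and leaving out adjoining bins changed none of the 6. Jak1 in M2p[pIL-4] to M0[CTR] reversed to -0.020 with 25 kb, -0.12 with 50 kb and -0.035 with merged pairs, and Ifngr1 in pIL-4 + IFNG to M2p[pIL-4] to 0.0098 with merged pairs. Shares matched in M0[CTR] fell to 49.3%, 44.4%, 41.8% and 47.3% in the same bins and rose to 99.3%, 99.5%, 99.3% and 97.6% within 50 kb, for M2[IL-4], M2p[pIL-4], IFNG and pIL-4 + IFNG. Genes with a Transient, Memory or Primed loop were 8, 8 and 8 in the same bins, 1, 0 and 1 within 50 kb, and 2, 3 and 1 with 25 kb. Contacts from the TSS bin alone gave 1 gene past a difference of 25%, Il4ra, in M2p[pIL-4] to M2[IL-4] and 0 in the other 5 comparisons. The cause of these moves was not tested. Counts this small, such as the 8 to 18 loops of Jak1, limit what could be detected.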
